A study of Mus musculus with 6 samples.

Results

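The genes examined here encode the receptors, transporters and enzymes of GABA and glycine transmission. They were chosen as named genes, with earlier results of these data known, and all 33 were found among the 55573 gene identifiers of the count table. They comprise 15 subunits of ionotropic GABA receptors, 3 of them rho subunits, 2 GABA-B receptor subunits, 5 glycine receptor subunits, the scaffold gephyrin, 4 genes of synthesis, vesicle loading and breakdown, 4 plasma membrane transporters and 2 chloride transporters. The RNA came from retinal cells of adult C57BL/6J mice whose vitreous had received AAV2-*GFP* (control, 3 libraries) or AAV2-*Ezh2* (3 libraries). In both groups optic nerve crush (ONC) followed 2 weeks after the virus, and cells were sorted 3 days after ONC. *Ezh2* encodes the catalytic subunit of Polycomb repressive complex 2, and the comparison asks how its overexpression changes the transcriptome of injured retinal ganglion cells (RGCs). Per the study's methods, live cells were sorted on CD90.2, the product of *Thy1*, a surface marker that T cells also carry, and AAV2 in the vitreous can also enter other retinal cells. The labels do not say whether replicates came from separate animals, so p-values measure only the spread between these libraries, which may be technical.

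GABA and glycine are the main inhibitory transmitters of the retina. Amacrine cells release one or the other onto RGCs and bipolar cells, where ligand-gated receptors open a chloride channel and GABA-B receptors act through G proteins. Transporters of the plasma membrane, many of them on glia, clear both transmitters, and cation-chloride cotransporters set the chloride gradient on which the sign of the response depends.

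Library totals ranged from 30569933 to 35971192 counts. *Ezh2* lay between 28.8 and 34.6 CPM (counts scaled by the library total) in the GFP libraries and between 65.3 and 104.8 CPM in the Ezh2 libraries. Ezh2 replicate 3 stood apart. Across genes its log2 CPM correlated at 0.971 to 0.972 with the other Ezh2 libraries, which correlated at 0.988 with each other. The study excluded 1 Ezh2 library, inferred here to be this one, so the main comparison used the other 5 libraries and was repeated with all 6. Of 20241 genes tested in the 5 libraries, 1.28% were called lower and 2.52% higher with *Ezh2* overexpression, where a call needs an adjusted p under 0.05 in the edgeR quasi-likelihood test and a fold change above 1.5.

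The labelled cell type was compared with its markers. Of the transcription factor genes on the RGC list, those of the Pou4f family were near 0 over the 6 libraries. *Pou4f2* lay at 0 to 0.0932 CPM, *Pou4f1* at 0 to 0.6 CPM and *Pou4f3* at 0.0556 to 0.404 CPM. *Isl1*, which is also on the bipolar list, lay at 5.98 to 11.6 CPM and *Ebf3* at 3.63 to 10.4 CPM. *Rbpms*, another RGC marker, lay at 16.4 to 20.8 CPM and *Thy1* at 87.2 to 113.8 CPM. Markers of Müller glia, the radial glia of the retina, were far more abundant, and *Glul*, which encodes glutamine synthetase, reached 5446 to 9900 CPM. The median over the list of Müller glia markers was 503.6 to 519.8 CPM per kilobase of merged exons in the GFP libraries, against 1.25 to 1.35 for RGC markers and 0.778 to 0.796 for amacrine markers. Over 12 tested RGC markers the median log2 fold change was 0.21. In the 5 libraries 2 of them were called higher and 0 lower, against 2.52% and 1.28% of all genes. These were *Ebf3* (1.34 ± 0.17, SE, on the log2 scale) and *Nefh* (0.72 ± 0.23). With all 6 libraries *Nefl* was called higher as well. The levels below therefore belong to a mixed sample, and fewer cells of a type cannot be told apart from less RNA per cell.

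**Figure D1:**
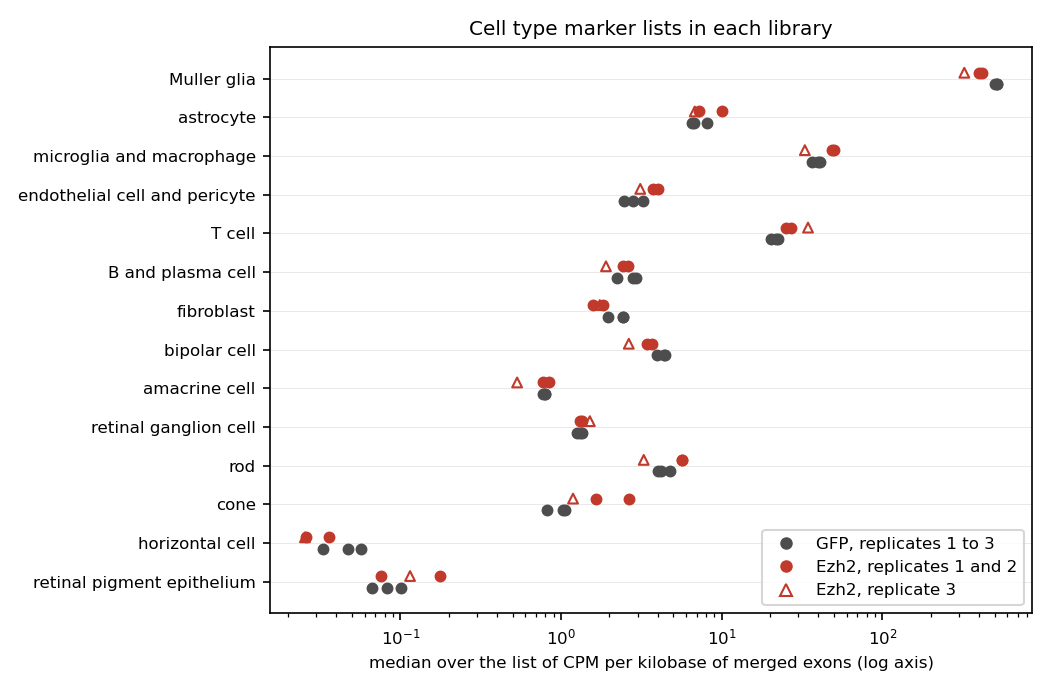
Median CPM per kilobase of merged exons over each list of cell type markers (log axis), with 1 point per library. Müller glia markers sat highest in all 6 libraries, at 503.6 to 519.8 in the GFP libraries, while RGC markers sat at 1.25 to 1.35 there.

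Levels per length were compared first, in CPM per kilobase of merged exons. *Slc6a11*, which encodes a GABA transporter known from glia, was the most abundant of the 33 genes in every library. It reached 144.9, 143.9 and 152.2 in GFP replicates 1 to 3, which was 53.6% to 54.3% of the summed level of all 33 genes. *Abat*, which encodes GABA transaminase, the enzyme that breaks GABA down, came next at 35.4, 35.2 and 38.0. *Glrb*, the glycine receptor subunit that binds gephyrin, followed at 16.3, 15.1 and 16.2. The ranges of these 3 genes in the GFP libraries lay apart from each other and from that of *Gphn* (gephyrin, 12.8 to 14.4), the next in order.

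Below them, *Slc6a9*, *Slc12a5*, *Gabbr1*, *Gabrr1*, *Slc12a2* and *Gabrr2* lay between 6.14 and 11.5 CPM per kilobase in the GFP libraries. Neighbours overlapped for *Slc6a9* with *Slc12a5*, for *Gabrr1* with *Slc12a2* and for *Slc12a2* with *Gabrr2*. *Slc6a13* ranked 11 of the 33 genes, at 2.25 to 2.71. Subunits of conventional GABA-A receptors were scarce, none above 0.681. The rho subunits, which form slowly desensitising GABA receptors known from bipolar cells, made up 85.1% to 86.9% of the summed per-length level of the 15 ionotropic GABA subunits in the GFP libraries and 88.9% to 92.3% in Ezh2 replicates 1 and 2. In Ezh2 replicate 3 this share was 89.2%. Genes that mark the release side were low too, with *Gad1* and *Gad2* at 0.188 to 0.255 and *Slc32a1* at 1.34 to 1.54 in the GFP libraries.

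**Figure D2:**
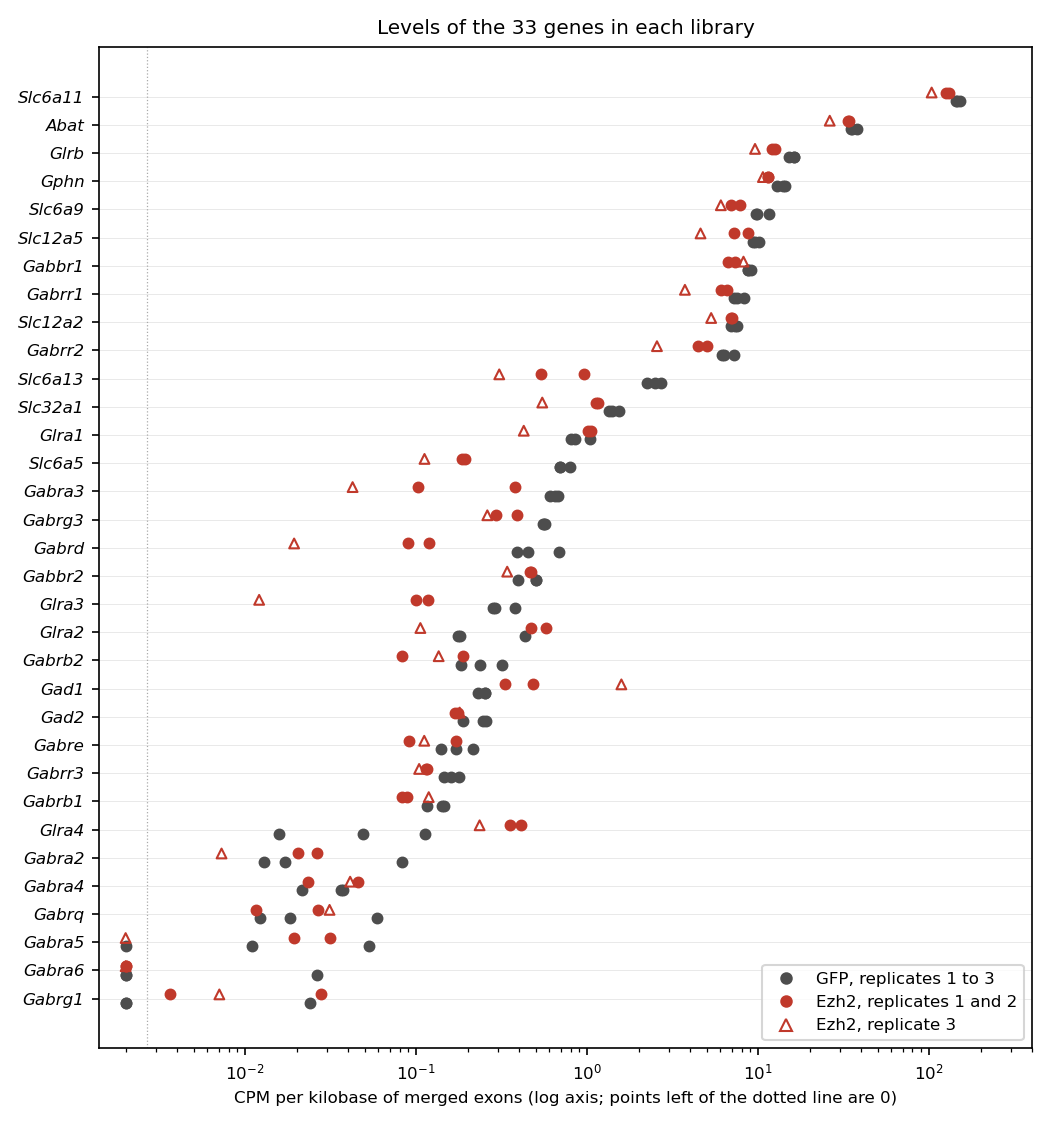
CPM per kilobase of merged exons (log axis) of each of the 33 genes, 1 point per library, ordered by the mean of the GFP libraries. *Slc6a11* led at 103.6 to 152.2 over the 6 libraries, and 6 genes at the bottom held too few counts to be tested in the 5 libraries.

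In the comparison of the 5 libraries, 27 of the 33 genes held enough counts to be tested. *Gabra2*, *Gabra4*, *Gabra5*, *Gabra6*, *Gabrg1* and *Gabrq* did not, with 0 to 20 counts per library. Of the tested genes, 6 were called lower and 1 higher, against 1.28% and 2.52% of all genes tested. The 6 lower genes were 2 transporter genes, *Slc6a13* and *Slc6a5*, 3 GABA-A subunit genes, *Gabrd*, *Gabra3* and *Gabrg3*, and the glycine receptor gene *Glra3*. The gene called higher was *Glra4*. At an adjusted p under 0.05 and any fold change, 13 were lower and 1 higher, against 7.68% and 10.1% of all genes. Log2 fold changes were negative for 22 of the 27 genes, against 51.3% of all genes, with a median of -0.36 against -0.0078 over all genes. *Gabrd* and *Glra4* passed the count filter only through the group in which they were higher, so these counts are a description of the genes that passed.

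When Ezh2 replicate 3 was included, 4 genes were called lower, *Slc6a13*, *Slc6a5*, *Gabrd* and *Gabrg3*, and 0 higher, against 0.902% and 1.62% of all genes. With any fold change 6 genes had an edgeR adjusted p under 0.05, all lower, against 2.7% of all genes lower and 3.08% higher. At an unadjusted p under 0.05 there were 13 lower and 2 higher, against 11.5% and 13% of all genes, and in the 5 libraries 15 lower and 3 higher, against 13.8% and 15.5%. The median log2 fold change of the 27 genes was then -0.46. Groups did not overlap for 19 of the tested genes lower in the Ezh2 libraries and 3 higher in the 5 libraries, against 23.4% and 21.5% of all genes. With all 6 libraries the corresponding counts were 18 and 2, against 19.3% and 14.9%.

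**Figure D3:**
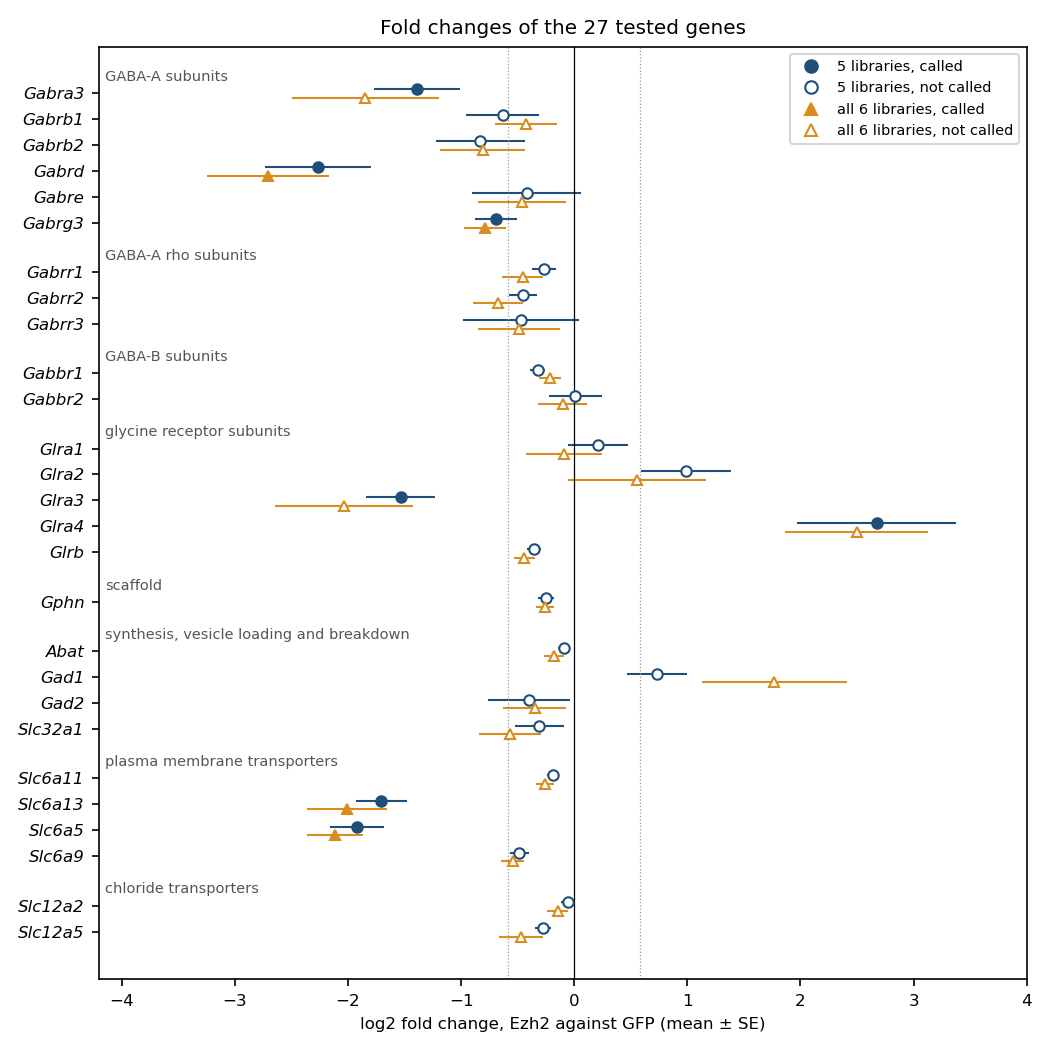
Log2 fold change with SE, Ezh2 against GFP, of the 27 tested genes by role, in the 5 libraries (circles) and in all 6 (triangles). Filled symbols are called, dotted lines mark a 1.5-fold change. Most genes sat to the left of 0, with *Gabrd* lowest at -2.26 and *Glra4* highest at 2.67 in the 5 libraries.

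All 4 plasma membrane transporter genes were lower in both Ezh2 libraries of the main comparison than in every GFP library, against 23.4% of all genes. The size of the difference varied widely. *Slc6a13* encodes GABA transporter 2 (Gat2) and lies on chromosome 6 (121300227 to 121337733, plus strand, GRCm38). It was at 6.54, 7.20 and 7.87 CPM in GFP replicates 1 to 3 and at 1.55, 2.80 and 0.89 CPM in Ezh2 replicates 1 to 3. All Ezh2 values were below all GFP values, and the log2 fold change of -1.71 ± 0.23 (SE) became -2.01 ± 0.35 with Ezh2 replicate 3, with an edgeR adjusted p of 2.04e-06 and 0.0176. In brain, *Slc6a13* is also known from fibroblasts of the meninges. Of 8 fibroblast markers, 7 were tested and 1 was called lower, against 1.28% of all genes. This was *Col1a1*, at -0.69 ± 0.11 (SE) on the log2 scale. At an edgeR adjusted p under 0.05 and any fold change 3 were lower, against 7.68% of all genes. The median log2 fold change of the tested fibroblast markers was -0.46. The summed fibroblast level was 266.9 to 293.0 CPM in the GFP libraries, 206.0 to 225.9 in Ezh2 replicates 1 and 2 and 212.0 in replicate 3, and *Slc22a6*, a marker on that list, had 0 counts in all 6. Their part in the *Slc6a13* result was not tested.

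*Slc6a5* encodes the neuronal glycine transporter GlyT2 and lies on chromosome 7 (49910146 to 49963856, plus strand). It was at 5.005, 5.02 and 5.69 CPM in the GFP libraries and at 1.40, 1.34 and 0.806 CPM in the Ezh2 libraries, again without overlap. Its log2 fold change was -1.92 ± 0.24 (SE) in the 5 libraries and -2.11 ± 0.24 in all 6, with an edgeR adjusted p of 6.46e-07 and 0.00261. *Slc6a5* was the only one of the 33 genes called with every library left out in turn, both from the 5 and from all 6. When a GFP library was left out of all 6, the edgeR adjusted p of *Slc6a13* rose to between 0.0866 and 0.11, and without Ezh2 replicate 1 it was 0.0617. The calls of *Gabrd* and *Gabrg3* in all 6 were also lost without any GFP library (adjusted p of 0.0916 to 0.125 and 0.166 to 0.191), that of *Gabrd* without Ezh2 replicate 2 (0.0546) and that of *Gabrg3* without Ezh2 replicate 1 (0.104).

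The other transporter genes were more abundant and changed less. *Slc6a9*, which encodes the glycine transporter GlyT1, was at 59.4, 49.8 and 50.7 CPM in the GFP libraries and at 40.1, 35.5 and 31.1 CPM in the Ezh2 libraries. The log2 fold change was -0.48 ± 0.08 (SE) at an edgeR adjusted p of 5.83e-05, and 1986 bases of its exons overlap antisense genes, among them *B4galt2*. *Slc6a11* was at 731.7, 726.6 and 768.4 CPM in the GFP libraries and at 658.7, 634.3 and 523.0 CPM in the Ezh2 libraries. Its log2 fold change of -0.19 ± 0.05 (SE) passed the test, with an edgeR adjusted p of 0.00643, which was 0.086 with all 6 libraries. *Slc6a11* held 90.9% to 91.9% of the summed per-length level of the 4 transporter genes in the GFP libraries and 93.9% to 94.1% in the Ezh2 libraries. Müller glia markers moved in the same direction. Their median log2 fold change was -0.22, and 6 of 9 were lower at an edgeR adjusted p under 0.05, against 7.68% of all genes. Their summed level was 31811 to 32477 CPM in the GFP libraries, 30274 to 32181 in Ezh2 replicates 1 and 2 and 24954 in replicate 3. *Apoe*, a marker on that list, was called higher (0.72 ± 0.06, SE, on the log2 scale), and the part of glial RNA in the transporter results was not tested.

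Sequences upstream of the RefSeq starts of 4 called genes are shown because PRC2 is known to gather at CpG-rich DNA. Each is the 250 bases before the first annotated start (RefSeq, GRCm38.p6), 5′ to 3′ on the gene's strand, with each CG in capitals. The *Slc6a13* sequence lies at chr6:121300038-121300287, *Slc6a5* at chr7:49910049-49910298, *Glra3* at chr8:55940168-55940417 and *Glra4* at chrX:136779722-136779971, the last on the minus strand. RefSeq starts differ from the gene coordinates given elsewhere in the text, which come from GENCODE. By those coordinates the *Glra4* sequence lies within the gene, and the *Slc6a13* and *Slc6a5* sequences lie partly within it. Only the *Glra3* sequence lies wholly before the gene.
Slc6a13: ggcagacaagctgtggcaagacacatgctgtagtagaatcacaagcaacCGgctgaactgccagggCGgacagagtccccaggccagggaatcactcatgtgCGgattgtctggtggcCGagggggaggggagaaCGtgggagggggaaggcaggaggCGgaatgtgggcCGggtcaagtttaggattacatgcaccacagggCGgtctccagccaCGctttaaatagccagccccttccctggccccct
Slc6a5: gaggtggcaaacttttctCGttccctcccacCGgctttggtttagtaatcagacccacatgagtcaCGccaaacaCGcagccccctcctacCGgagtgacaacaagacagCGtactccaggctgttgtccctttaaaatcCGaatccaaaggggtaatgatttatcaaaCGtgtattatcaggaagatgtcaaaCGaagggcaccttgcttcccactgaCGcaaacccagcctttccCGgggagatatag
Glra3: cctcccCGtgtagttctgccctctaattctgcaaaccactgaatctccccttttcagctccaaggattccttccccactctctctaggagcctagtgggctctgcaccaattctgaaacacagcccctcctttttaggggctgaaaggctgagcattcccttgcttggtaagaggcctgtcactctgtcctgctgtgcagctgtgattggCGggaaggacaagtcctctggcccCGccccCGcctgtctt
Glra4: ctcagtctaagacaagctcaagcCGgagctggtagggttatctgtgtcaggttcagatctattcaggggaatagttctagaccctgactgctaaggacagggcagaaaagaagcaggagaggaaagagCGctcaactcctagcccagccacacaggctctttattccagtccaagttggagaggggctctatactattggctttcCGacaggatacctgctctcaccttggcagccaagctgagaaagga

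The motif CG, which reads the same on both strands, was counted in each sequence. It occurred 9 times for *Slc6a13*, 11 times for *Slc6a5*, 4 times for *Glra3* and 3 times for *Glra4*. Of 32851 windows of the same length, 40.3%, 35.6%, 62.2% and 71.0% held at least as many. Over the 5 genes called lower that have an entry the median was 9, with a range of 0 (*Gabra3*) to 11. Over 17 tested genes that were not called it was 13, with a range of 1 to 37, and over all windows it was 6. These are counts of letters, and methylation of histones or DNA is not analysed here.

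All 6 tested GABA-A subunit genes other than the rho subunits had negative log2 fold changes in the 5 libraries, against 51.3% of all genes. Of these, 3 were called lower, against 1.28% of all genes, and *Gabrd* among them passed the count filter only through the GFP libraries. *Gabrd* encodes the delta subunit of extrasynaptic receptors (chromosome 4, 155384980 to 155398112, minus strand). It was at 1.11, 1.96 and 1.30 CPM in the GFP libraries and at 0.342, 0.257 and 0.0556 CPM in the Ezh2 libraries, the last of these from 2 counts. The groups lay apart, with a log2 fold change of -2.26 ± 0.47 (SE) in the 5 libraries and -2.71 ± 0.54 in all 6 and an edgeR adjusted p of 0.000698 and 0.022.

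*Gabra3* encodes the alpha3 subunit (chromosome X, 72432681 to 72656848, minus strand). It was at 2.55, 2.37 and 2.67 CPM in the GFP libraries, and the Ezh2 libraries were spread widely, at 0.404, 1.48 and 0.167 CPM. Its log2 fold change of -1.39 ± 0.38 (SE) had an edgeR adjusted p of 0.0122. Without Ezh2 replicate 1 it was -0.74, with an adjusted p of 0.211, and with all 6 libraries it was -1.85 ± 0.65, with an adjusted p of 0.144. *Gabrg3* encodes the gamma3 subunit (chromosome 7, 56716465 to 57387188, minus strand). The GFP libraries lay close together at 6.58, 6.76 and 6.64 CPM, above all Ezh2 libraries at 3.51, 4.65 and 3.11 CPM. The log2 fold change was -0.69 ± 0.19 (SE) at an edgeR adjusted p of 0.00831 (5 libraries), 0.0435 (all 6) and 0.162 without Ezh2 replicate 1. *Gabrb1*, *Gabrb2* and *Gabre* had log2 fold changes of -0.83 to -0.42, none with an edgeR adjusted p under 0.05. *Gabrb2* was called lower when Ezh2 replicate 2 was left out, with an adjusted p of 0.0474.

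*Gabra3*, *Gabrd*, *Gabrg3*, *Glra3* and *Slc6a13* are also on the list of excitability genes that the study chose on these libraries, so their direction is not independent evidence. *Slc6a5* and *Glra4* are not on that list, but their values come from the same libraries, so their direction is not independent evidence either.

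The rho subunit genes were all lower in the Ezh2 libraries without overlap, against 23.4% of all genes in the 5 libraries and 19.3% in all 6. *Gabrr3* held only 16 to 24 counts per library. None was called in the 5 or in all 6 libraries. In each fit 2 were lower at an unadjusted edgeR p under 0.05, against 13.8% and 11.5% of all genes. *Gabrr2* was at 12.9, 15.2 and 13.2 CPM in the GFP libraries and at 10.7, 9.36 and 5.39 CPM in the Ezh2 libraries. Its log2 fold change was -0.45 ± 0.12 (SE) at an edgeR adjusted p of 0.00911 (5 libraries) and 0.106 (all 6). *Gabrr1* and *Gabrr3* had log2 fold changes of -0.26 and -0.47, with adjusted p of 0.0858 and 0.596. Bipolar markers had a summed level of 854.5 to 878.6 CPM in the GFP libraries, 757.3 to 834.5 in Ezh2 replicates 1 and 2 and 677.9 in replicate 3, and their part was not tested.

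The GABA-B receptor works as a pair of subunits, of which Gabbr1 binds GABA and Gabbr2 couples to the G protein. *Gabbr1* was at 68.2, 67.5 and 70.3 CPM in the GFP libraries and at 57.0, 52.0 and 63.8 CPM in the Ezh2 libraries, with Ezh2 replicate 3 nearest to the control group. The log2 fold change was -0.32 ± 0.06 (SE) at an edgeR adjusted p of 0.000456, which was 0.222 with all 6 libraries. *Gabbr2* was far lower, at 0.397 to 0.504 CPM per kilobase in the GFP libraries against 8.69 to 9.06 for *Gabbr1*. Its groups overlapped, with a log2 fold change of 0.011 ± 0.24 (SE) that turned to -0.10 with all 6 libraries.

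Glycine receptor genes moved in both directions. *Glra3*, an alpha subunit gene known from the inner retina (chromosome 8, 55940460 to 56130070, plus strand), was at 2.65, 3.51 and 2.60 CPM in the GFP libraries and at 1.09, 0.913 and 0.111 CPM in the Ezh2 libraries. The groups lay apart, with a log2 fold change of -1.53 ± 0.30 (SE) and an edgeR adjusted p of 0.000404. With all 6 libraries the spread between Ezh2 libraries grew, and the values were -2.03 ± 0.61 and 0.102.

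*Glra4*, an alpha subunit gene on chromosome X (136757674 to 136780141, minus strand), held few counts, 3, 1 and 7 in the GFP libraries against 23, 29 and 17 in the Ezh2 libraries. This corresponds to 0.0981, 0.0316 and 0.228 CPM against 0.714, 0.828 and 0.473 CPM, so all Ezh2 libraries lay above all GFP libraries, at levels where 3 counts correspond to 0.0834 to 0.0981 CPM. The log2 fold change was 2.67 ± 0.71 (SE) at an edgeR adjusted p of 0.00681 (5 libraries) and 0.0519 (all 6), and it depends on the prior count at such levels. Without Ezh2 replicates 1 or 2 the adjusted p was 0.0529 and 0.119, so the call did not hold without either library.

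*Glrb* was at 75.8, 70.2 and 75.4 CPM in the GFP libraries and at 56.1, 58.4 and 44.7 CPM in the Ezh2 libraries. The log2 fold change was -0.36 ± 0.06 (SE) at an edgeR adjusted p of 0.000135, and 0.0306 with all 6 libraries. Per length, *Glrb* exceeded the sum of the 4 alpha subunit genes by 9.89 to 10.6 times in the GFP libraries, by 5.85 to 6.16 times in Ezh2 replicates 1 and 2, and by 12.3 times in Ezh2 replicate 3. *Glra2* was at 0.556, 0.569 and 1.37 CPM in the GFP libraries and at 1.80, 1.48 and 0.334 CPM in the Ezh2 libraries. Here the log2 fold change was 0.99 ± 0.40 (SE) at an adjusted p of 0.0837 in the 5 libraries, 0.0151 without GFP replicate 3 and 0.596 in all 6. *Glra1* had a log2 fold change of 0.21, which turned to -0.088 with all 6 libraries. *Gphn*, whose product anchors glycine and GABA-A receptors at synapses, was at 48.2, 54.1 and 52.1 CPM in the GFP libraries and at 43.0, 42.7 and 40.0 CPM in the Ezh2 libraries, a log2 fold change of -0.25 ± 0.07 (SE) at an edgeR adjusted p of 0.0134, which was 0.0946 with all 6.

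**Figure D4:**
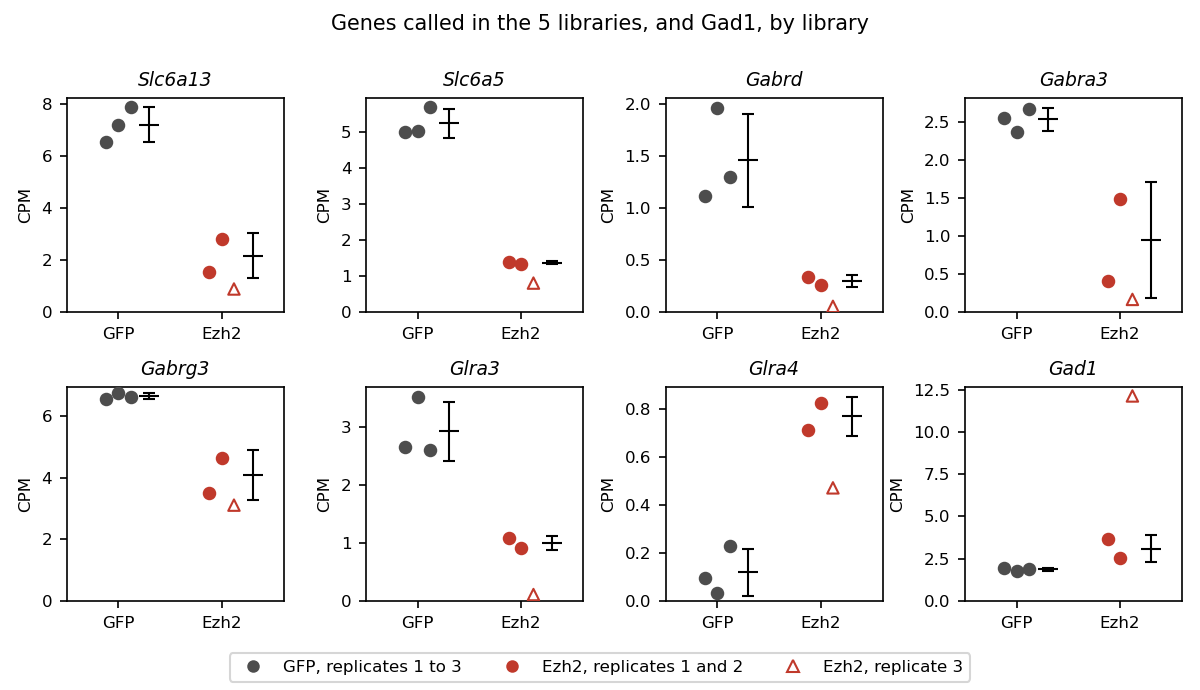
CPM by library (vertical axes start at 0) of the 7 genes called in the 5 libraries and of *Gad1*, with the mean ± SD of the GFP libraries (n = 3) and of Ezh2 replicates 1 and 2 (n = 2) beside the points. The Ezh2 points lay below the GFP points in 6 panels and above them for *Glra4* and *Gad1*, where Ezh2 replicate 3 reached 12.1 CPM.

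None of the 4 genes of synthesis, vesicle loading and breakdown was called in either fit. Only *Gad1*, which was higher, had an unadjusted edgeR p under 0.05, against 15.5% of all genes in the 5 libraries and 13% in all 6. *Gad1*, which encodes the GABA-synthesising enzyme GAD67, was at 1.93, 1.77 and 1.92 CPM in the GFP libraries and at 3.66, 2.54 and 12.1 CPM in the Ezh2 libraries. The groups did not overlap, but the log2 fold change of 0.73 ± 0.27 (SE) had an edgeR adjusted p of 0.0537 (5 libraries), and 1.77 ± 0.64 had one of 0.168 in all 6. In the 5 libraries it was called higher without Ezh2 replicate 2 (0.0493) and with a filter at a mean of 50 counts (0.0415). *Gad2*, which encodes GAD65, and *Slc32a1*, the vesicular transporter for GABA and glycine, had log2 fold changes of -0.40 ± 0.36 and -0.31 ± 0.22 (SE), with adjusted p of 0.509 and 0.38. *Abat* was at 273.9, 272.3 and 294.0 CPM in the GFP libraries and at 258.8, 261.9 and 203.4 CPM in the Ezh2 libraries, a log2 fold change of -0.094 ± 0.051 (SE) at an adjusted p of 0.225.

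Amacrine cells are the main retinal source of these transmitters, and their markers moved in both directions. *Tfap2b* was called lower, by -2.72 ± 0.24 (SE) on the log2 scale, and *Tfap2c* (2.93 ± 0.38), *Nhlh2* (1.88 ± 0.26) and *C1ql1* (0.69 ± 0.18) were called higher. The median over 13 tested amacrine markers was 0.0046, and their summed level was 519.1 to 527.9 CPM in the GFP libraries, 465.4 to 466.7 in Ezh2 replicates 1 and 2 and 408.8 in replicate 3. *Pax6*, at 350.3 to 449.8 CPM, made up most of that sum and is also expressed by Müller glia. For AII amacrine cells, a glycinergic type, all 5 markers were lower at an edgeR adjusted p under 0.05, against 7.68% of all genes. *Gjd2* (-2.45 ± 0.17, SE) and *Dner* (-1.25 ± 0.11) were called, at 18.5 to 28.2 CPM in the GFP libraries. *Dab1* (-0.44 ± 0.05), *Prox1* (-0.22 ± 0.05) and *Nfia* (-0.23 ± 0.05) were not, and lay at 128.7 to 232.1 CPM there. Which cell types these transcripts came from was not tested. Of 6 listed markers of starburst amacrine cells, *Chat*, *Slc5a7* and *Slc18a3* lay at or under 0.334 CPM in all libraries. The others were more abundant, with *Megf10* at 242.9 to 370.3 CPM, *Sox2* at 103.9 to 122.5 CPM and *Megf11* at 4.49 to 9.01 CPM. Their log2 fold changes were -0.29 ± 0.05, -0.035 ± 0.053 and 0.41 ± 0.18 (SE), with edgeR adjusted p of 9.52e-05, 0.724 and 0.12, and 0 were called. T cell markers summed to 402.2 to 427.7 CPM in the GFP libraries, 514.6 to 539.5 in Ezh2 replicates 1 and 2 and 848.7 in replicate 3, the library with the highest *Gad1*.

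Markers of other retinal and immune cells moved as well. All 8 cone markers were called higher in the 5 libraries, against 2.52% of all genes. Their median log2 fold change was 1.19, though *Cnga3* passed the count filter only through the Ezh2 libraries. The summed cone level was 28.8 to 29.0 CPM in the GFP libraries, 58.1 to 66.7 in Ezh2 replicates 1 and 2 and 38.8 in replicate 3. Of 8 rod markers, 6 were higher at an edgeR adjusted p under 0.05, against 10.1% of all genes. Of these markers 2 were called higher, against 2.52%, and the median log2 fold change over the 8 was 0.50. Their summed level was 383.6 to 452.8 CPM in the GFP libraries and 685.3 to 724.3 in Ezh2 replicates 1 and 2, while replicate 3, at 403.2, lay within the GFP range. With all 6 libraries 2 cone markers and 0 rod markers were called higher, against 1.62% of all genes. Of 11 markers of microglia and macrophages, 8 were higher at an edgeR adjusted p under 0.05, against 10.1% of all genes. *Lyz2* (2.19 ± 0.18, SE), *Cd68* and *Mrc1* were called higher in the 5 and in all 6 libraries, against 2.52% and 1.62%. The 11 markers summed to 1990 to 2225 CPM in the GFP libraries, 3562 to 4163 in Ezh2 replicates 1 and 2 and 2802 in replicate 3. *Calb1*, listed for horizontal cells, which are GABAergic, was called lower (-2.73 ± 0.36, SE) at 2.50 to 3.17 CPM in the GFP libraries and 0.0834 to 0.559 CPM in the Ezh2 libraries, and it passed the count filter only through the GFP libraries. The other horizontal cell markers, *Onecut1*, *Onecut2* and *Lhx1*, lay at or under 1.46 CPM in all libraries. Among astrocyte markers *Gfap* alone was called higher, by 1.01 ± 0.08 (SE) on the log2 scale. The part of any of these cell types in the results for transmission genes was not tested.

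The 2 chloride cotransporter genes act in opposite directions, since the *Slc12a5* product KCC2 carries chloride out of neurons and the *Slc12a2* product NKCC1 carries it in. *Slc12a5* was at 69.9, 71.0 and 75.3 CPM in the GFP libraries and at 64.8, 53.6 and 34.3 CPM in the Ezh2 libraries. All Ezh2 libraries were lower, Ezh2 replicate 3 most, and the log2 fold change was -0.28 ± 0.07 (SE) at an edgeR adjusted p of 0.00511 (5 libraries) and 0.2 (all 6). *Slc12a2* had overlapping groups and a log2 fold change of -0.053 ± 0.06 (SE) at an adjusted p of 0.613.

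Other genes of the pathway gave fewer calls. Of 55 further genes for receptor partners, trafficking, GABA-B effectors, glutamine and GABA metabolism, glycine synthesis and chloride balance, 1 was called lower and 2 higher in the 5 libraries, against 1.28% and 2.52% of all genes, so the calls lay near the background. At an adjusted p under 0.05 and any fold change 12 were lower and 5 higher, against 7.68% and 10.1%, and their median log2 fold change was -0.042. In all 6 libraries, where 54 were tested, 0 were called either way, and 16 lower and 4 higher genes had an unadjusted p under 0.05, against 11.5% and 13% of all genes. *Kcnj6*, which encodes a potassium channel opened through GABA-B receptors, was at 0.883, 1.80 and 2.05 CPM in the GFP libraries and at 0.497, 0.799 and 0.556 CPM in the Ezh2 libraries. For *Kcnj6* the log2 fold change was -1.26 ± 0.42 (SE) at an edgeR adjusted p of 0.0327. The call was lost without GFP replicate 2 (0.106), GFP replicate 3 (0.17) or Ezh2 replicate 1 (0.237). *Shmt1*, which encodes a glycine-forming enzyme of the cytosol, was at 4.12, 4.61 and 4.39 CPM in the GFP libraries and at 9.22, 5.34 and 6.09 CPM in the Ezh2 libraries. It had a log2 fold change of 0.74 ± 0.20 (SE) at an edgeR adjusted p of 0.0081, which was 0.493 without Ezh2 replicate 1.

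*Slc38a5*, which encodes an amino acid transporter that carries glutamine and glycine, had 8, 1 and 0 counts in the GFP libraries and 22, 26 and 3 counts in the Ezh2 libraries. Its log2 fold change of 2.84 ± 0.81 (SE) had an edgeR adjusted p of 0.0133 (5 libraries), and the gene passed the count filter only through the Ezh2 libraries. Without GFP replicate 3, Ezh2 replicate 1 or Ezh2 replicate 2 the adjusted p was 0.0504, 0.0763 and 0.126, and the gene was not tested in all 6. Of the genes below the fold change threshold, *Glul* fell by 0.49 on the log2 scale (SE 0.05, edgeR adjusted p of 4.01e-08). *Gabarap*, which encodes a protein that binds GABA-A receptors and acts in autophagy, rose by 0.44 (SE 0.06, adjusted p of 1.4e-06).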

How the data were processed

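RNA-Seq libraries of sorted retinal cells, 3 with AAV2-*GFP* and 3 with AAV2-*Ezh2*, were compared. The authors isolated total RNA with a PicoPure kit, made TruSeq stranded libraries and deposited raw read counts per Ensembl gene. The submitters' processing notes name STAR 2.7.0d and mouse build GRCm38. The counting program, annotation release and strand setting are not given in the sources used here, so genes with antisense overlaps are uncertain. Of 55573 identifiers, 55480 matched GENCODE M21 (GRCm38), which gave symbols, coordinates and merged exon lengths. All 33 genes matched, and 0 count columns lacked a sample.

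Genes with low counts were removed by filterByExpr. Counts were scaled with TMM factors and tested by the quasi-likelihood test of edgeR 4.0.16 (R 4.3.3) with robust estimation and group as the only term. P-values were two-sided, adjusted by Benjamini-Hochberg over all genes tested. Robust estimation was chosen after seeing the data because it gave the counts of an earlier fit of these libraries. A call needed both an adjusted p under 0.05 and more than a 1.5-fold change. SE was taken from the F statistic. CPM used library totals. A count of 0 allows up to 3 counts (0.0834 to 0.0981 CPM), for counting error only. Ezh2 replicate 3 was left out of the main comparison, following the study's exclusion of 1 Ezh2 library. Its identity is inferred.

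The members and all gene lists were chosen with earlier results of these data known. Every library's values are given for genes called in either fit, for those with an adjusted p under 0.05 in the 5 libraries and for the 3 most abundant per length. *Glra2*, *Gad1*, *Glul* and *Gabarap* were added after their values were seen. Other pathway genes were named where called, while not every called marker gene was named. On simulated counts of 20034 genes for Ezh2 against GFP in the 5 libraries, the fit made 7 false calls. It called 21 of 49 genes changed 1.5-fold, 45 of 50 changed 2-fold, 50 of 50 changed 3-fold and 49 of 49 changed 4-fold. A 1.5-fold change lies at the call threshold itself. All genes were simulated with the same dispersion, so these rates do not describe genes that vary more between replicates. Alternatives were the use of all 6 libraries, omission of each library, a replicate block, DESeq2 1.42.0, limma-voom (limma 3.58.1), other scaling, other filters, other thresholds and, added after seeing the data, no robust estimation. Upstream sequences came from RefSeq (GRCm38.p6), with an entry for 29 of the 33 genes. Figures were drawn with matplotlib 3.10.9.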

Additional observations from a re-analysis of the deposited data

Results flagged for a closer look

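In Ezh2 replicate 3, which the main comparison did not use, 2 genes with at least 10 counts lay over 2-fold above every GFP library. *Gad1* was at 12.12 CPM there, against 1.77 to 1.93 CPM in the GFP libraries and 2.54 to 3.66 CPM in the other Ezh2 libraries. *Glra4* was at 0.4726 CPM, against 0.0316 to 0.228 CPM in the GFP libraries and 0.714 to 0.828 CPM in the other Ezh2 libraries.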

How the results depend on the processing

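Across 23 alternatives that kept both thresholds, 611 single-gene values of the 27 tested genes could be compared with the main comparison. Call and direction were the same in 547, a call was lost in 41 and gained in 6, and the direction turned in 17, which were values of *Gabbr2* and *Glra1*. The 2 alternatives that changed the thresholds called 14 genes (adjusted p alone) and 4 genes (glmTreat), against 7. With all 6 libraries, 4 transmission genes were called lower, 0 higher, and 6 had an adjusted p under 0.05. Their median log2 fold change was -0.46, that of RGC markers 0.32 and that of Müller glia markers -0.30, while 0 pathway genes were called lower, 0 higher, and 15 markers were called higher. The values turned to -0.10 for *Gabbr2* and -0.088 for *Glra1*. Without robust estimation, all 6 libraries gave 3 transmission genes lower, 0 higher, 5 with an adjusted p under 0.05, 0 pathway genes either way and 15 markers higher, with the medians and the values of *Gabbr2* and *Glra1* as above, and the 5 libraries gave 0 pathway genes lower.

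Libraries that share a replicate number did not deviate together from their group means (correlations of -0.0045, -0.020 and -0.0099). The Ezh2 means included Ezh2 replicate 3, which stood apart, so these values cannot exclude that the samples were paired. With the replicate block, 2 transmission genes were called higher, 0 pathway genes lower and 1 higher in the 5 libraries. In all 6 the block gave 3 transmission genes lower, 0 higher, 4 with an adjusted p under 0.05, 0 pathway genes lower, 0 higher and 11 markers higher, with medians of -0.48 for transmission genes, 0.41 for RGC markers and -0.31 for Müller glia markers, -0.10 for *Gabbr2* and -0.16 for *Glra1*.

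The adjusted p alone gave 13 transmission genes lower, 12 pathway genes lower and 5 higher, and 21 markers lower and 41 higher. With glmTreat, 0 transmission genes were higher, 0 pathway genes lower, 0 higher and 8 markers higher. DESeq2 called 0 transmission genes and 1 pathway gene higher, and it gave no adjusted p for 3 genes, *Gabre*, *Gabrr3* and *Glra4*. A filter at a mean of 50 counts gave 0 pathway genes lower and 1 higher, and limma-voom 0 lower. Upper quartile factors turned *Gabbr2* to -0.025.

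With each library left out in turn of the 5 or of all 6, 1 to 7 transmission genes were called lower, 0 to 2 higher, and 1 to 15 had an adjusted p under 0.05. The low end came from leaving any GFP library out of all 6, where *Slc6a5* alone was called. Pathway genes ran from 0 to 3 lower and 0 to 2 higher, and markers from 3 to 6 lower and 4 to 24 higher. Medians ran from -0.50 to -0.33 for transmission genes, 0.15 to 0.47 for RGC markers, -0.20 to 0.20 for amacrine markers and -0.36 to -0.14 for Müller glia markers. *Gabbr2* ran from -0.21 to 0.068 and *Glra1* from -0.29 to 0.33. A fit that left 1 library in a group assumed that it varied like the other group. The cause of these shifts was not tested. Depth kept 6 transmission genes, with 0 to 20 counts per library, out of the tests.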
